A study of Homo sapiens with 2 samples.

Results

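A group of 10 genes that NF-κB is known to switch on in inflammation was examined for p52 binding. They were chosen by name as classical effector targets (PTGS2, IRF1, CD83, TNFAIP2, ICAM1, IL6, IL32, CCL2, CCL20 and SOD2), out of 20033 protein-coding genes on chromosomes 1 to 22, X and Y. The measurement was chromatin immunoprecipitation followed by sequencing (ChIP-seq) with an antibody given by its target, NFKB2, in MDA-MB-231, an established line of triple-negative breast cancer. Both libraries came from cells that were starved for 8 h and then given TWEAK at 10 ng/ml for 48 h, with fresh cytokine after 24 h. By the labels these 2 libraries were replicates of 1 group, and the study's methods call its cell line ChIP-seq replicates biological. Control libraries (untreated, IgG, input) were not analysed here, and binding could not be set against cells without TWEAK.

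p52 is made by processing of the NFKB2 precursor and is the DNA-binding product of non-canonical NF-κB signalling, the slower arm of the pathway that TWEAK engages through its receptor Fn14. NF-κB dimers recognise κB sites, short near-palindromic sequences with G runs on one side and C runs on the other. The genes examined here are the downstream output of the pathway in inflammation, and include cytokines and chemokines that recruit leukocytes, adhesion and costimulatory proteins, and enzymes that make lipid mediators or remove superoxide. AP-1 dimers of FOS and JUN proteins often act at the same enhancers.

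The deposited lists held peak summits, the position of highest signal in each peak called by the authors. All summits within 100 kb of each gene body were taken. This gave 6 of 2007 summits in replicate 1 and 5 of 1467 in replicate 2, and no summit lay within reach of more than 1 of the genes. Strength is the number given with each summit in the authors' lists, read here as −log10 q. Its median was 10.3 over replicate 1 and 9.47 over replicate 2. Summits were called shared when the lists held one within 200 bp of the other. This applied to 990 summits, which were 49.3% of replicate 1 (Wilson 95% interval 47.1 to 51.5) and 67.5% of replicate 2 (65.0 to 69.8). Neither the read depth nor the q threshold was stated, and the lowest −log10 q in the lists was 1.00 in replicate 1 and 1.02 in replicate 2. A gene without a summit may still be bound below what these libraries could detect. The files hold no expression values, so neither the cell line's identity nor the activity of these genes could be checked.

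The DNA under the summits is printed first because the results turn on which κB and AP-1 matches lie there. Sequences are hg38, plus strand, 5′ to 3′. Where both lists had the site, 50 bases on either side of the summit pair are shown. Capitals mark matches to the 10-letter κB consensus on either strand or to AP-1 (TGACTCA, whose reverse complement is TGAGTCA). Overlapping κB matches were joined into 1 block. A match describes the letters and does not show that the protein touched them.
CD83 start, both replicates (chr6:14117606-14117756): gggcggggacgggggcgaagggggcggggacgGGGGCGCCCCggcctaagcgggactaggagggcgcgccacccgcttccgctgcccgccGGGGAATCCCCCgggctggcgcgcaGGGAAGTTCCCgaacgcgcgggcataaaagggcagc
IL32 start, replicate 1 only, 30 bases (chr16:3065295-3065324): ctgtactcaGGGAGTTTCCCcagccagctg
PTGS2 28 kb upstream, both replicates (chr1:186708926-186709034): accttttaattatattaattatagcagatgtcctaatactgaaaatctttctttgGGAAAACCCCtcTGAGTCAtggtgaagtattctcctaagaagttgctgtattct
TNFAIP2 12 kb upstream, both replicates (chr14:103109057-103109164): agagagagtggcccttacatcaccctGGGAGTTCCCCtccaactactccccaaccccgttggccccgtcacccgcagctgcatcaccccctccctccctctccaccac
IRF1 intron, replicate 1 only (chr5:132459193-132459293): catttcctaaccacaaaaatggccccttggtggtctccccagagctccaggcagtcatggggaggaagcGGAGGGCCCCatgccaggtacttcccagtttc
IRF1 intron, replicate 2 only (chr5:132498341-132498441): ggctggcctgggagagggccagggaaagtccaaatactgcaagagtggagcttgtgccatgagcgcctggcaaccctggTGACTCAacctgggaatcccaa

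Of the 10 genes, 5 had a summit within 100 kb of the gene body in replicate 1, where 25.0% of all protein-coding genes had one. In replicate 2 the number was 4, against 16.8% of all genes. The 4 genes with a summit in both lists were PTGS2, IRF1, CD83 and TNFAIP2, and 14.2% of all genes had one in both. IL32 had summits in replicate 1 only. The summit itself was shared at 3 of the genes, CD83, PTGS2 and TNFAIP2, against 12.2% of all genes. The other 5 genes, ICAM1, IL6, CCL2, CCL20 and SOD2, had no summit within reach in either list. Within 50 kb the counts did not change and stood at 5, 4 and 4, against 16.7%, 10.7% and 8.84% of all genes. Within 20 kb of the gene body the counts were 4 in replicate 1, 3 in replicate 2 and 3 in both, against 10.6%, 6.61% and 5.29% of all genes. Within 250 kb, a reach chosen after the data were seen, they were 7, 5 and 5, against 41.7%, 30.4% and 26.6% of all genes.

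Summits at a start site were fewer. Within 1 kb of any annotated start of the gene, replicate 1 had summits at 2 of the 10 genes, CD83 and IL32, where 1.93% of all protein-coding genes had one. Replicate 2 had a summit at CD83 alone (0.973% of all genes), which was therefore the only one of the 10 found in both lists (0.764% of all genes). The members were picked as known NF-κB targets and with earlier results of these data in view, so these counts are descriptions and no test was made of them.

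**Figure D1:**
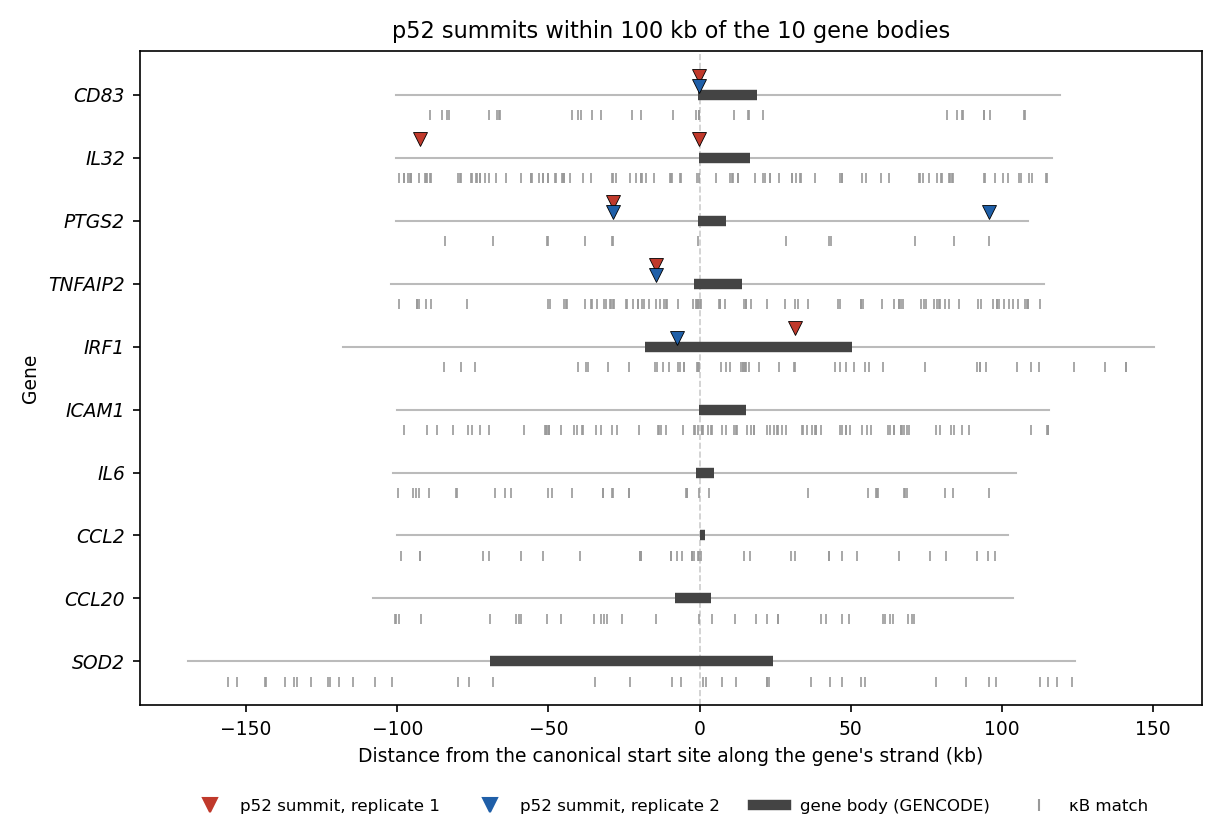
Each row is 1 of the 10 genes, drawn as the distance in kb from its canonical start site along its own strand, with the gene body as a dark bar, the 100 kb reach as a thin line, κB matches as grey ticks and p52 summits as triangles (red, replicate 1; blue, replicate 2). The upper 5 genes carry 6 summits of replicate 1 and 5 of replicate 2, whereas the lower 5 genes carry κB ticks and no triangle.

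CD83 encodes a surface glycoprotein of mature dendritic cells and activated lymphocytes. The gene lies on the plus strand of chromosome 6 (ENSG00000112149.10, 14117256 to 14136918). Replicate 1 had a summit at 14117706 with a −log10 q of 36.8, rank 243 of 2007. Replicate 2 had one at 14117656 with a −log10 q of 5.74, rank 1043 of 1467. The summits were 50 bp apart, 66 bp and 116 bp upstream of the canonical start, and fell in an intron of the longer transcript that starts farther out. This was the strongest of the summits near the 10 genes in replicate 1, inside the upper 12.1% of its list, but it ranked at 71.1% of the way down the list of replicate 2. CD83 was the closest protein-coding gene by far, since the start of the next, RNF182, was 192513 bp away.

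The window at CD83 held more κB letters than any other near these genes. There were 3 separate κB blocks made of 6 overlapping matches, at 14117638-14117647, 14117696-14117707 and 14117721-14117731. The summit of replicate 1 was 4.5 bp from the centre of the middle block, and the summit of replicate 2 was 13.5 bp from the centre of the first. All 3 blocks lay just upstream of the canonical start, with centres 129.5, 70.5 and 46 bp from it. There was no AP-1 match at either summit.

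IL32 encodes a proinflammatory cytokine of T cells, NK cells and epithelial cells, and lies on the plus strand of chromosome 16 (ENSG00000008517.19, 3065297 to 3082192). Replicate 1 had a summit at 3065347 with a −log10 q of 9.02, rank 1106 of 2007. It fell in an annotated exon, 8 bp from 1 of the 26 annotated starts and 293 bp upstream of the canonical start. A κB block at 3065304-3065314 had its centre 38 bp from the summit, the largest such distance among the genes with a κB match at a summit. In replicate 2 there was no summit within reach, and the nearest was 1102471 bp away.

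The second IL32 summit of replicate 1, at 2973176, was at the edge of the 100 kb reach, 92121 bp from the gene body. Its −log10 q was 3.25, rank 1772 of 2007. It lay 306 bp from a start of PKMYT1, a kinase gene of the cell cycle, in an exon of PKMYT1 and of its neighbour PAQR4. It held neither motif and had no partner in replicate 2, so its place among the IL32 values rests on distance alone.

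PTGS2 encodes cyclooxygenase-2, the inducible enzyme of prostaglandin synthesis, and lies on the minus strand of chromosome 1 (ENSG00000073756.13, 186671791 to 186680922). In replicate 1 a summit lay at 186708976 with a −log10 q of 12.3, rank 879 of 2007. The summit of replicate 2 was 8 bp away at 186708984, with a −log10 q of 7.83, rank 861 of 1467. These summits were intergenic, 28054 bp and 28062 bp upstream of the outermost PTGS2 start, and PTGS2 was the closest gene of any kind. The next protein-coding start was that of PLA2G4A at 119973 bp, which encodes the phospholipase that releases arachidonic acid, the substrate of cyclooxygenase-2.

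This was the site among the 10 genes where both motifs met. A κB match at 186708981-186708990 was followed by an AP-1 match at 186708993-186708999, with 2 bases between them and 10.5 bp between their centres. The κB centre was 9.5 bp from the summit of replicate 1 and 1.5 bp from that of replicate 2. Of all summits on chromosomes 1 to 22, X and Y, 6.10% in replicate 1 and 6.69% in replicate 2 held both a κB and an AP-1 match.

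A further PTGS2 summit was in replicate 2 only, over 50 kb downstream of the gene, with a −log10 q of 8.18 and rank 843 of 1467. This was the stronger of the PTGS2 summits in replicate 2. It had a κB match, and PTGS2 was the closest protein-coding gene, but a gene that is not protein-coding was closer. Part of its window is repeated in the genome, since 127 of 171 stretches of 31 bases occurred once and others up to 52 times. At the shared PTGS2 site 168 of 171 stretches occurred once for the window of replicate 1, and all stretches did so at the CD83, TNFAIP2, IRF1 and IL32 summits.

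TNFAIP2 encodes a TNF-induced protein that acts in membrane protrusions and the exocytosis machinery, and lies on the plus strand of chromosome 14 (ENSG00000185215.11, 103121476 to 103137439). The summit of replicate 1 was at 103109114 with a −log10 q of 10.1, rank 1017 of 2007. That of replicate 2 was 7 bp away, at 103109107, with a −log10 q of 3.68 and rank 1224 of 1467. They lay 12362 bp and 12369 bp upstream of the first TNFAIP2 start. Another gene was closer, because both summits fell in an intron of EXOC3L4, 1492 bp and 1485 bp from a start of that gene. EXOC3L4 is a relative of the exocyst subunit gene EXOC3 and the upstream neighbour of TNFAIP2, and summits alone do not show which of the pair is served by the site. The κB block at 103109083-103109093 was centred 26 bp and 19 bp from the summits, and there was no AP-1 match.

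IRF1 encodes a transcription factor of the interferon response and lies on the minus strand of chromosome 5 (ENSG00000125347.15, 132440440 to 132508719). Although both lists had a summit in the gene body, they were different sites, both weak. That of replicate 1 was at 132459243 with a −log10 q of 3.82, rank 1720 of 2007, and that of replicate 2 at 132498391 with a −log10 q of 2.85, rank 1296 of 1467. Neither was shared, so IRF1 counted as found in both lists without any position that repeated.

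The IRF1 gene body in the annotation spans 68280 bp with 28 starts, whereas the canonical transcript covers 9165 bp. The summit of replicate 1 was 6221 bp upstream of the nearest annotated start but 31530 bp downstream of the canonical start, in an intron of IRF1, of the antisense RNA IRF1-AS1 and of a read-through gene (ENSG00000283782). It had a κB match at 132459262-132459271, centred 23.5 bp from the summit. The summit of replicate 2 was 1924 bp upstream of an annotated start and 7618 bp upstream of the canonical start. It was the only summit near the 10 genes with an AP-1 match and no κB match.

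**Figure D2:**
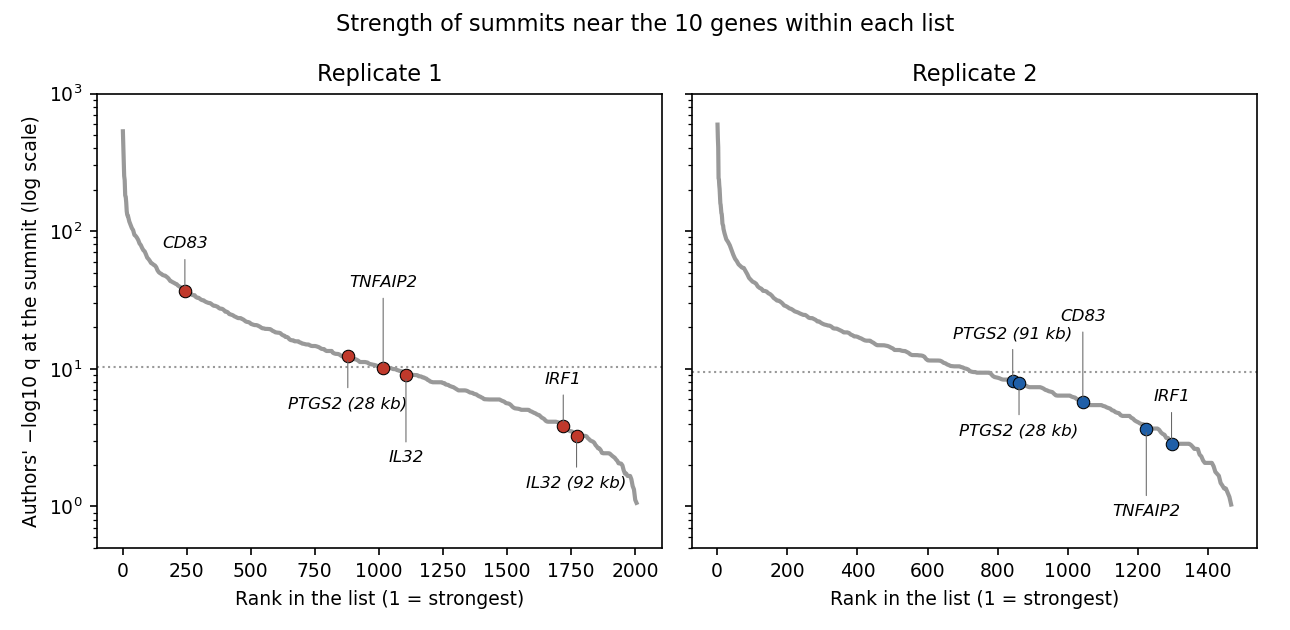
Every summit of a list was ranked by its number in the authors' list, read as −log10 q (y axis, log scale). Replicate 1 is on the left and replicate 2 on the right. Grey lines give the whole list, dotted lines its median and coloured points the summits near the 10 genes. CD83 in replicate 1 (36.8) and the PTGS2 site 28 kb upstream (12.3) lie above their list's median of 10.3, whereas all 5 points of replicate 2 lie below 9.47.

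Summits near the 10 genes were of middle to low strength. Their median −log10 q was 9.56 in replicate 1, at a median of 52.9% of the way down the list, and 5.74 in replicate 2, at 71.1%. Of the 6 summits of replicate 1, 2 were above the median of the list, those of CD83 and the shared PTGS2 site. Of the 5 summits of replicate 2, 0 were. At the shared sites the rank in replicate 1 and in replicate 2 was 243 and 1043 for CD83, 879 and 861 for PTGS2, and 1017 and 1224 for TNFAIP2, in lists of unequal length. Since −log10 q depends on depth, the values were not compared between lists other than by rank.

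κB matches were present at most of these summits. In replicate 1, 5 of 6 summits had a κB match within 100 bp, and in replicate 2, 4 of 5, whereas 52% and 57.3% of the 1804 and 1225 summits on chromosomes 1 to 22, X and Y had one. Windows of the same length of 201 bp at the canonical starts of all protein-coding genes had one in 8.07%. The distance from these summits to the nearest κB centre ran from 1.5 to 38 bp, with those of IL32, TNFAIP2 and IRF1 at 19 bp or more. The median over all summits with a match was 7 bp in replicate 1, which 4 of 5 summits near the genes exceeded, and 8 bp in replicate 2, which 2 of 4 exceeded. AP-1 matches were at 1 of 6 and 2 of 5 summits, compared with 7.93% and 7.67% of all summits and 2.13% of the start windows. The 3 AP-1 matches stood at 2 sites, that of PTGS2 and that of IRF1 in replicate 2.

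**Figure D3:**
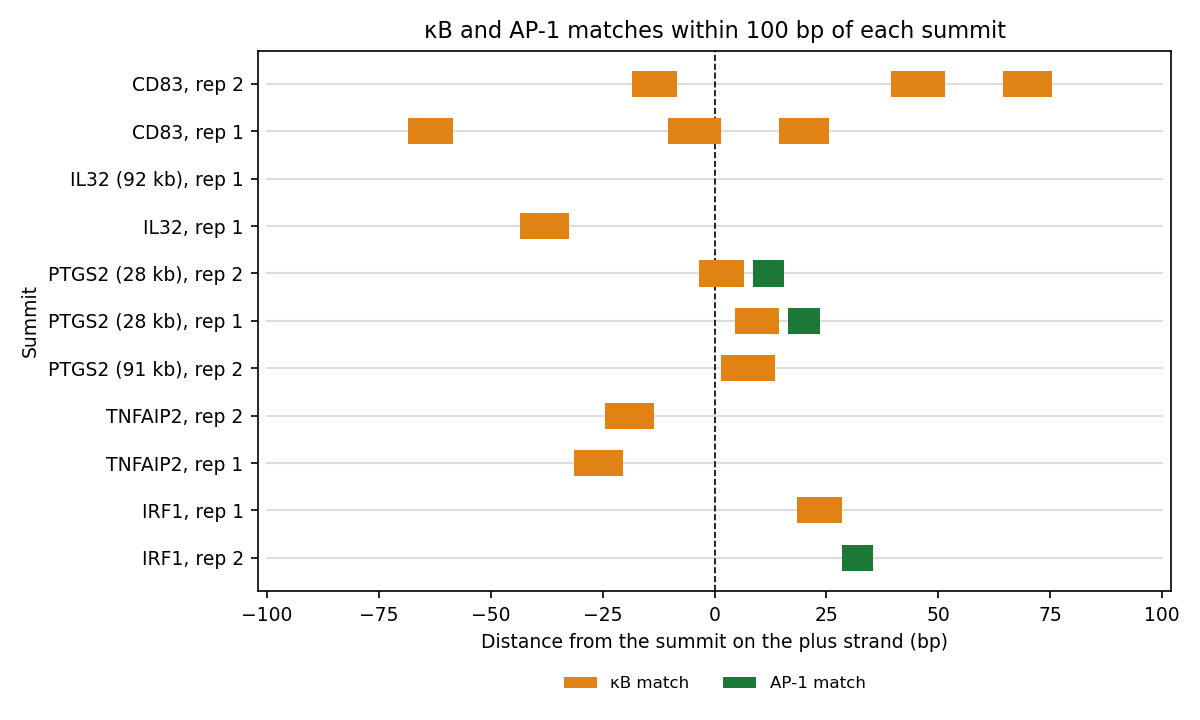
Each row is a summit within 100 kb of 1 of the genes, with the distance from the summit in bp on the plus strand on the x axis and blocks for κB (orange) and AP-1 (green) matches within 100 bp. The CD83 rows hold 3 κB blocks each, the PTGS2 rows at 28 kb hold κB and AP-1 side by side, and the IL32 summit at 92 kb holds none.

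For the strongest summit of each gene, the gene's own start was closer than that of any other protein-coding gene at 4 of 5 genes in replicate 1 and at 3 of 4 in replicate 2. TNFAIP2 was the exception in both lists. In replicate 1 IRF1 was counted by its nearest annotated start, 6221 bp from the summit. Its canonical start was 31530 bp away, farther than a start of the read-through gene ENSG00000283782 at 9591 bp. No matching value over all genes is given here. When genes of every biotype were counted, the share fell from 75% to 50% in replicate 2, where PTGS2 became a further exception, and stayed at 80% in replicate 1.

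The 5 genes without a summit within reach were surveyed for the nearest one and for κB sequence. ICAM1 encodes an adhesion molecule that binds leukocyte integrins (chromosome 19, 10271093 to 10286615). Its nearest summit in replicate 1 was just outside the reach, 130066 bp from the gene body at 10416681, with a −log10 q of 16.1 and rank 657 of 2007. That summit had a κB match but lay 92 bp from a start of PDE4A, in an intron of CDC37, and was not in replicate 2, whose nearest summit was 2357033 bp away. Among the genes with a summit, the one closest to the 100 kb limit was IL32 at 92121 bp.

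IL6 encodes interleukin-6 (chromosome 7, 22725884 to 22732002). The nearest summits were 215104 bp and 215126 bp upstream, at 22510780 in replicate 1 and 22510758 in replicate 2. These were much stronger than any within reach of the 10 genes, with a −log10 q of 131 and rank 19 in replicate 1 and of 85.1 and rank 28 in replicate 2. Both fell in EEF1A1P6, a processed pseudogene of a translation factor inside an intron of STEAP1B, and held no κB or AP-1 match. Reads from a processed pseudogene and from its parent gene can be hard to tell apart, and their part in this signal was not tested.

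The chemokine genes were far from any summit. For CCL2, which encodes a monocyte attractant (chromosome 17, 34255274 to 34257208), the nearest were 1885389 bp away in replicate 1 and 1986325 bp in replicate 2. For CCL20, which encodes the ligand of CCR6 (chromosome 2, 227805739 to 227817564), they were 2907736 bp and 3644189 bp away. SOD2 encodes the mitochondrial superoxide dismutase (chromosome 6, 159669069 to 159762529). Its nearest summit was at 160215440 in both lists, 452911 bp upstream in an intron of SLC22A2, with a κB match and a −log10 q of 52.03 in replicate 1 and 42.9 in replicate 2.

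Peak numbers in the lists rise along the genome, which allowed a check of whether peaks may have been taken out around these genes. The numbers ran to 4210 in replicate 1 and 4732 in replicate 2, of which 2203 and 3265 were not in the lists used here. Between the summits that flank IL6, CCL2 and CCL20 no number was missing in either list, and none was missing around IL32 in replicate 2. Around ICAM1 7 numbers were missing in replicate 1 and 18 in replicate 2, over 1930420 bp and 6280677 bp, and around SOD2 1 and 2 were missing. Whether any of these lay within reach of ICAM1 or SOD2 cannot be told.

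κB sequence was present near genes with and without a summit. Within reach of the gene body there were 93 κB blocks at ICAM1, 35 at IL6, 36 at CCL2, 34 at CCL20 and 41 at SOD2. At the genes with a summit the numbers were 14 at PTGS2, 52 at IRF1, 33 at CD83, 92 at TNFAIP2 and 108 at IL32. The ranges overlapped, 34 to 93 against 14 to 108. Of the 538 blocks in all, 8 were within 100 bp of a summit of either list. PTGS2, with the fewest κB blocks of the 10 genes, had 2 of its 14 at a summit.

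The start sites gave a similar count in both sets. Within 1 kb of the canonical start, all 5 genes with a summit and 4 of the 5 without had a κB match, the exception being SOD2, compared with 53.7% of all protein-coding genes in windows of 2001 bp. IL6, CCL2 and CCL20, none of which had a summit, carried a κB match within 100 bp of the start, as did CD83 and IRF1. To show these matches without a called summit beside those with one, 30 bases around several of them are printed here, hg38, plus strand, κB in capitals, with the distance of the match centre from the canonical start.
IL6, 68.5 bp upstream (chr7:22727117-22727146): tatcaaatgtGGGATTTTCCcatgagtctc
CCL20, 74.5 bp upstream (chr2:227813753-227813782): tgatcaatggGGAAAACCCCatgtggcaac
CCL2, 79.5 bp upstream (chr17:34255191-34255220): tatcactcatGGAAGATCCCtcctcctgct
ICAM1, 695.5 bp downstream (chr19:10271801-10271830): cttctacttgGGGGAATTCCagagctgact
IRF1, 45.5 bp upstream (chr5:132490804-132490833): aacacttagcGGGATTCCCCagccctggcc
IRF1, 655.5 bp upstream (chr5:132491414-132491443): gctggaccagGGGAAATCCCaacttggccg
PTGS2, 444.5 bp upstream (chr1:186680853-186680882): cgggggcgcaGGGAATCCCCtctcccgccg

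Several of these carry the same 10 letters as a site with a summit. The CCL20 match is identical to the one at the shared PTGS2 site, and the PTGS2 start match and the IRF1 match nearest to its start are both contained in the middle block of CD83, the latter on the other strand. PTGS2 thus had a κB match at its own start without a summit, while its shared summit lay 28 kb upstream. IL6 also had an AP-1 match 280 bp upstream of its start, and CCL2 had AP-1 matches 261 bp and 758 bp downstream, whereas SOD2 had an AP-1 match 827 bp upstream and no κB match. All stretches of 31 bases in the 201 bp windows at the 10 canonical starts occurred once in the chromosomes searched, for genes with and without a summit alike.

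**Figure D4:**
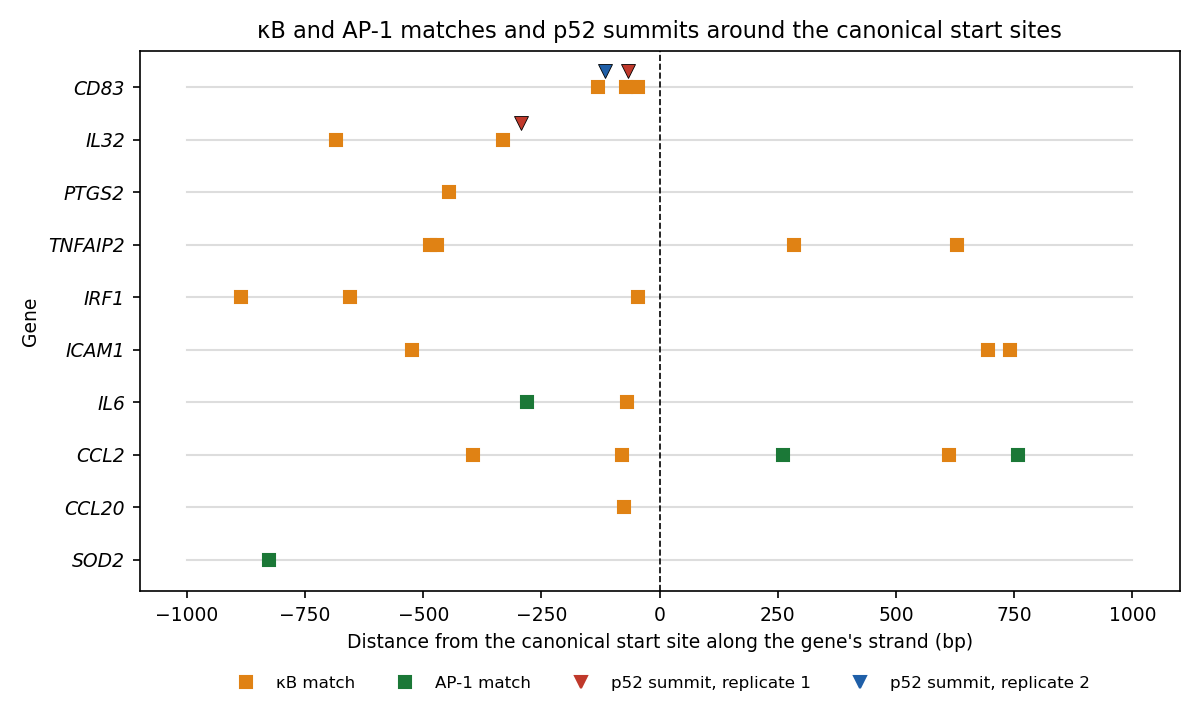
Rows are the 10 genes and the x axis is the distance in bp from the canonical start along the gene's strand, with κB (orange) and AP-1 (green) matches as squares and p52 summits as triangles (red, replicate 1; blue, replicate 2). Summits sit at CD83 and IL32, beside κB matches, while the matches of IL6, CCL2 and CCL20 at 68.5, 79.5 and 74.5 bp upstream have none.

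How often each κB word lay at a summit anywhere in the genome was then counted, as a description of the letters these genes carry. Of 446679 κB matches on chromosomes 1 to 22, X and Y, 0.413% were within 100 bp of a summit of replicate 1 and 0.318% of replicate 2. The site counted is included in its own word's share. The word GGAATTCCCC, present on the other strand downstream of the ICAM1 start, occurred 4394 times, and 5.05% of the copies lay at a summit in replicate 1 and 4.35% in replicate 2. For the IRF1 word GGGAAATCCC, 655.5 bp upstream of the start, the shares were 3.55% and 3.18% of 5692 copies. These ICAM1 and IRF1 copies had no summit on them, although another copy of the ICAM1 word within reach of the 10 genes did. The words at the PTGS2 summit of replicate 2 alone are not described.

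Of the other words described, all were nearer to the average of all κB matches. For the word shared by PTGS2 and CCL20 the shares were 0.680% and 0.476% of 5884 copies. At the TNFAIP2, CD83 and IL32 summits, where matches overlap, the word with the highest share in replicate 1 is given, and the others were lower. The TNFAIP2 word at the summit reached 1.02% in replicate 1 and 0.621% in replicate 2, and the middle block of CD83 reached 0.879% and 0.749%. The IL32 word at the summit had 0.348% and 0.265%, and the word at the IRF1 summit of replicate 1 had 0.103% and 0.0206%. The IL6 word 68.5 bp upstream lay at a summit in 0.138% of 7271 copies in replicate 1 and 0.110% in replicate 2. For the CCL2 word 79.5 bp upstream, 0 of 4431 copies lay at a summit in replicate 1 and 1 in replicate 2. Among the matches within 1 kb of a canonical start, the words most often found at summits across the genome were those of ICAM1 and IRF1.

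**Figure D5:**
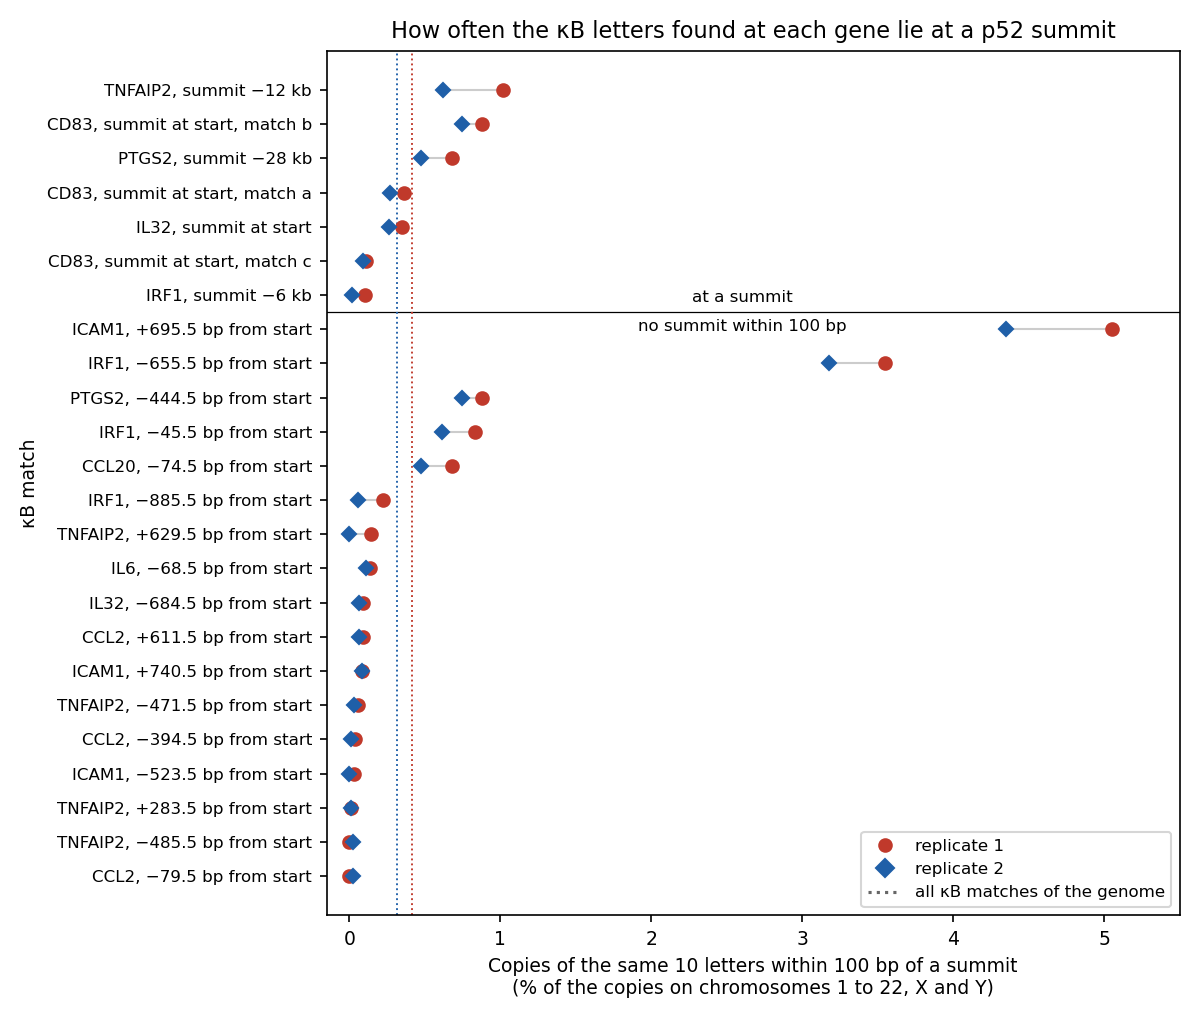
Rows are κB matches at summits near the 10 genes (above the line) and within 1 kb of their canonical starts without a summit (below), and the x axis gives the percentage of all genomic copies of the same 10 letters that lie within 100 bp of a summit of replicate 1 (red) or replicate 2 (blue). Dotted lines give all κB matches (0.413% and 0.318%), where matches overlap the word with the highest share is drawn, and the ICAM1 and IRF1 words at 5.05% and 3.55% stand out among the matches without a summit.

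Other genes of the same kind were counted in the same way. Of 40 further inflammatory targets of NF-κB, 13 had a summit within 100 kb in replicate 1, 12 in replicate 2 and 10 in both, beside the 25.0%, 16.8% and 14.2% of all genes given above. These were not all separate sites, since SAA1 and SAA2 were reached by the same summit in each list, and IL1A and IL1B in replicate 2. By the strongest summit of each gene, another gene's start was closer at CSF3, SELE, PLAU, IL15RA, GADD45B and SAA2 in both lists. The same held at IL23A, IER3 and SAA1 in replicate 1 and at IL1A in replicate 2. Among the 40, the numbers at a start site were 4, 3 and 2, beside 1.93%, 0.973% and 0.764% of all genes. The genes with a start site summit in both lists were CSF1, the macrophage growth factor, with a −log10 q of 23.6 and 20.6, and B2M, the light chain of MHC class I, with 19.5 and 12.6. The 17 paralogues were PTGS1, SOD1, SOD3, CD80, CD86 and genes of the IRF and ICAM families, with none for IL6, IL32, CCL2, CCL20 or TNFAIP2. Of these, 9, 5 and 5 had a summit within 100 kb, beside the same 25.0%, 16.8% and 14.2% of all genes. Only IRF2, ICAM2 and, in replicate 1, IRF5 had the closest protein-coding start at a summit. The ICAM3 summit was the one 92 bp from a start of PDE4A. At a start site, 1 of the 17 had a summit in both lists, beside 0.764% of all genes. That gene was ICAM2, an endothelial and platelet relative of ICAM1, with weak summits of −log10 q 4.42 and 2.61, 152 bp and 144 bp from its start. ICAM1 itself had none.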

How the data were processed

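p52 ChIP-seq was carried out in TWEAK-treated MDA-MB-231 cells (2 replicates), fixed in 1% formaldehyde for 10 min and sheared to 200-500 bp. Per the labels and methods, the authors trimmed reads with Trimmomatic, used Bowtie2 for alignment (hg38) and MACS2, subtracting input, for peaks, and took out blacklisted regions with bedtools. The labels also list deepTools. Versions and the q threshold were not given in the sources used here. By the peak names, peaks were called per replicate. In the deposited lists each row is a 1 bp summit with a number read as a −log10 q-value, because the columns are those of MACS2 summit files. It served for ranks within a list.

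Summits were related to GENCODE release 44 genes and every annotated start. Own and other starts were compared by distance. κB and AP-1 matches were sought on both strands within 100 bp of a summit, and 31 bp stretches were counted in 455 reference sequences. Python 3.11.15, numpy 2.4.6, pysam 0.24.0, numba 0.67.0, samtools 1.23.1 and matplotlib 3.10.9 were used. The scripts were tested on simulated data. With 1 group and no control, no test was made and intervals cover counting error only. Backgrounds were all protein-coding genes, all summit windows and all start windows.

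The 10 genes, the 40 further targets and the 17 paralogues were chosen with earlier results of these data known. Named were all 10 genes, genes whose start lay closer to a gene's strongest summit, and further targets and paralogues with a start site summit in both lists. Other gene names were added after their values were seen. Alternatives varied the reach, promoter distance, starts, strength, sharing distance, motif window and consensus, gene biotypes, exonic or pseudogene summits and the replicate left out. A reach of 250 kb and the canonical transcript body were chosen after seeing the data. The sequence at 1 PTGS2 summit is not reported here.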

Additional observations from a re-analysis of the deposited data

How the results depend on the processing

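Of the values under the alternatives, 81 stayed within 1.5 times the reported count or inside the 95% binomial interval of the reported share, and 20 did not. With 5 or 6 summits these intervals are wide. The 11 summits of both lists stood at 8 distinct sites. Shares over both lists count a shared site once per list, and their intervals treat these calls as independent. With the stronger 50% of each list, the genes with a summit within 100 kb fell to 2 in replicate 1, 0 in replicate 2 and 0 in both. Those with a start site summit fell to 1, 0 and 0, and the shared summits to 0. The κB share became 100% in replicate 1 and over both lists, and so did the share of genes whose own start was closest. Every share under this cut rests on 2 summits of replicate 1, those of CD83 and the shared PTGS2 site. The cut lowers counts for any set of genes, and no share of all genes or of all summits under it is given here. Taking 5 kb as the promoter gave 2 genes in replicate 2 instead of 1, IRF1 being added. A wider promoter can only raise such a count, and no share of all genes at 5 kb is given here. The κB share of replicate 1 rose from 83.3% to 100% within 50 kb, within 20 kb, without exonic or pseudogene summits and with 1 mismatch allowed. The mismatch also made it 100% in replicate 2 (80% before) and over both lists (81.8% before), but then 74.7% and 75.0% of all summits match. The AP-1 share of replicate 1 went from 16.7% to 0% within 20 kb, 50% with the stronger 50% and 33.3% with a 250 bp window. Over both lists it went from 27.3% to 14.3%, 50% and 45.5%. With the 250 bp window 13.5% of all summits in each list had an AP-1 match, up from 7.93% and 7.67%.

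Leaving out 1 replicate gave 4 to 5 genes with a summit within 100 kb, 1 to 2 with a start site summit, κB shares of 80% to 83.3%, AP-1 shares of 16.7% to 40% and own-start shares of 75% to 80%. Sharing could not be computed from 1 list. With the canonical transcript body, chosen after the data were seen, 5, 4 and 4 genes had a summit in replicate 1, replicate 2 and both. No share of all genes by canonical body is given here.

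No paired analysis was possible because there was 1 group. Unknown depth and threshold limit every absence.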

Other observations

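Outside the 10 genes, a few of the 40 further inflammatory targets drew attention, and they were picked after their values were seen. LIF, which encodes a cytokine of the IL-6 family, had a shared summit about 4 kb upstream of its start (4197 bp and 4207 bp), with κB matches and a −log10 q of 43.4 in replicate 1 and 20.8 in replicate 2. Within each list this was stronger than any summit within reach of the 10 genes. CXCL1, a neutrophil chemokine, had a summit 38 bp upstream of its start with a −log10 q of 10.5 and a κB match, in replicate 1 only.

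The acute-phase genes SAA1 and SAA2 each had a start site summit in a different list. Replicate 1 had one 61 bp upstream of SAA2 with a −log10 q of 14.5, and replicate 2 had one 74 bp upstream of SAA1 with a −log10 q of 4.54. Both windows held a κB match and neither summit had a partner in the other list. SAA1 and SAA2 are near-identical paralogues, and whether reads were placed at the wrong copy was not tested.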
